A study of Mus musculus with 4 samples.

Results

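Skin is covered by a stratified epithelium whose cells are renewed in a basal layer and harden as they move outwards, and 39 genes of this programme and of the hair follicle were followed in mammary fat pad (MFP) tissue of aged and young mice. The members are the genes of a given list of symbols, each found once among the 55487 genes of the count table. They fall into 4 groups by role, with 5 basal and pan-stratified genes, 10 suprabasal genes, 15 genes of the cornified envelope and barrier, and 9 genes of the hair follicle and its companion layer. Total RNA depleted of ribosomal RNA was sequenced in a strand-specific way from 2 aged and 2 young samples, which are labelled biological replicates. The labels give the strain as c57b/6j. The study's methods name strain J of C57B/6 among the mice used, and describe female C57BL/6NCrl mice for the fat pad injections. Neither the labels nor the methods say whether animals were pooled. The aged animals were 14 months old and the young animals 8 weeks old, none of the groups carried a transgene or received a treatment that the labels name, and the fat pad was lysed whole without isolating any cell type. The study used this fat-rich tissue as a model of the ageing subcutaneous environment in which melanoma cells grow. The comparison of aged with young MFP asked here how much RNA of epidermis and hair follicle each fat pad sample held and whether it differed with age.

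In epidermis, basal keratinocytes make the keratins Krt5 and Krt14, suprabasal cells switch to Krt1 and Krt10, and the outermost living cells make filaggrin, involucrin, loricrin and small proline-rich proteins, which transglutaminases link into the cornified envelope. Hair follicles add keratins of their own in the inner root sheath, the companion layer and the upper follicle. The mammary gland develops from the same surface ectoderm, so its ducts share the basal keratins and several broadly epithelial genes with skin, whereas a cornified layer and hair are not parts of the ducts inside the fat pad.

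The upstream sequences of Ivl (involucrin, a scaffold protein of the cornified envelope) and Lipm (a lipase of the outer epidermal cells) are shown because these members had the largest fitted differences between the ages. They are the bases just before the annotated gene start, from RefSeq on GRCm38.p6, with Ivl on the minus strand at chr3:92573736-92573985 and Lipm on the plus strand at chr19:34100693-34100932. Capitals mark matches to the AP-1 motif TGANTCA or to TATAAA, searched on both strands.
Ivl: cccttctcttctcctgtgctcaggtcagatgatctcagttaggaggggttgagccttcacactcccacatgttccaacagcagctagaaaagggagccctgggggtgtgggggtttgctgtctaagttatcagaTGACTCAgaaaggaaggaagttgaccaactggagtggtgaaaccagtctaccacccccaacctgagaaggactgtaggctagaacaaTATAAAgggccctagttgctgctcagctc
Lipm: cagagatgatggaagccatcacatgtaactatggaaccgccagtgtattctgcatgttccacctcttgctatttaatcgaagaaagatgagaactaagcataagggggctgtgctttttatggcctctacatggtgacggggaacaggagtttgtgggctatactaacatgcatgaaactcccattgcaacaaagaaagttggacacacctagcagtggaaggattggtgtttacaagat
The Ivl window held both motifs and the Lipm window neither. TGANTCA stood in 10 of 31 windows of member genes and in 6.75% of all 32851 windows in the RefSeq table. A gene can have several windows, and the 10 were those of Dmkn, Flg, Flg2, Ivl, Krtdap, Sbsn, Sprr1b and Sprr2d. TATAAA stood in 11 of the 31 and in 12.4% of all. Any windows of Dsc1, Dsg1a, Dsg1b and Dsg3 were left out of the 31 but kept in all 32851. The member shares and the shares of all windows are thus not strictly comparable. These matches describe letters in the windows and not binding.

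Depth was 83936413 and 98402403 counts in aged replicates 1 and 2, and 77661766 and 68803304 counts in young replicates 1 and 2. At these totals 3 counts, taken as the smallest number told from 0, equal 0.0337 to 0.0406 CPM (counts relative to a library size scaled by the TMM method), and this floor covers counting error only. Of all genes, 22485 had enough counts to be tested. The ages were compared with edgeR's quasi-likelihood test, its p-values adjusted by Benjamini-Hochberg, and DESeq2 was run on the same counts. With 2 samples a group an exact two-sided permutation test cannot give a p below 0.333, so none is used. Young replicate 1 had the lowest summed level of both mammary epithelial lists. Its 12 other basal keratinocyte and myoepithelial genes summed to 1154 CPM, against 2059 to 2673 in the other libraries. Most of each of these sums was the single gene Dst, at 774 CPM in young replicate 1 and 1399 to 2013 CPM in the others. Its 12 mammary luminal genes summed to 1786 CPM, against 2788 to 4424. All 12 skeletal muscle genes and all 10 adipocyte genes of 2 further lists were higher in both aged than in both young libraries. This order held in 23.3% of all genes tested. Summed levels in aged against young libraries were 46275 and 74250 against 11891 and 16497 CPM for muscle. For adipocytes they were 15553 and 12337 against 9887 and 10031 CPM. The part of these other tissues in the member genes' values was not tested. In whole tissue, fewer cells of a type and less of its RNA per cell cannot be told apart.

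The 39 members together took 0.00801 to 0.0145% of all counts. Their summed level was 149 and 88.4 CPM in aged and 102 and 110 CPM in young libraries, so the young values lay between the aged ones. At one end of the range, 9 members (Krt2, Flg, Flg2, Sprr1b, Sprr2d, Cnfn, Casp14, Krt6b and Krt27) had 0 counts in all 4 libraries, and Dsc1 had at most 2. At the other end Cdsn alone reached 2190 to 6602 counts. Of the 39 members, 22 passed the filter on low counts, and members that passed it only through a group in which they were high had to differ. Lipm, Ivl and Krt71 were such members, with 7 counts or fewer in each young library.

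**Figure D1:**
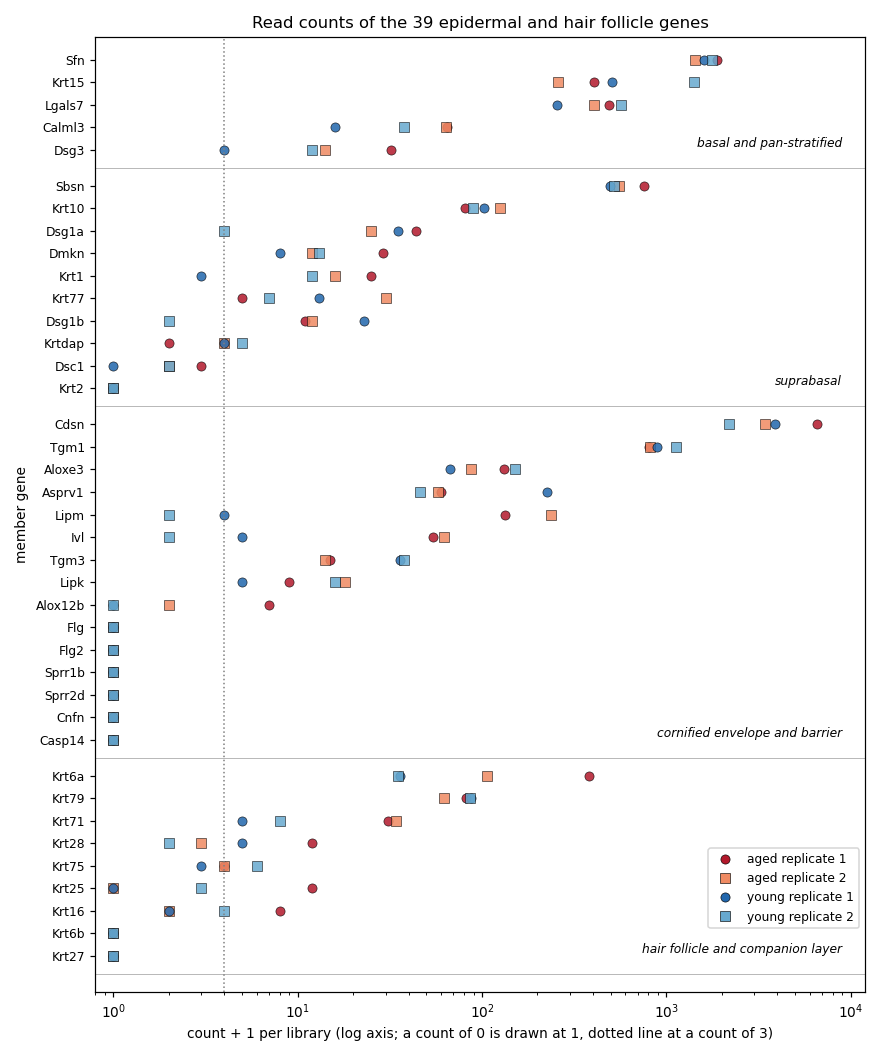
Read count plus 1 of each of the 39 members in each library (log axis), by group and falling mean CPM, with circles and squares for replicates 1 and 2, red for aged and blue for young. Cdsn and Sfn lie at 1432 counts or more in every library, 9 members lie at 0 in all 4, and Lipm and Ivl show the aged points far to the right of the young ones.

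By edgeR's quasi-likelihood test 0 of the 22 tested members passed an adjusted p of 0.05, and neither did any other gene (0% of 22485), the lowest adjusted p being 0.36. The unadjusted p was under 0.05 in 5 members (Lipm, Ivl, Tgm3, Krt6a and Krt71) and in 10.5% of all genes. DESeq2 called 3 members higher in aged MFP, Lipm, Ivl and Krt6a, where 3.24% of all genes were called higher, and 0 members lower, where 0.71% were called lower. The fitted log2 fold change was above 0 in 13 members and below 0 in 9. Its median was 0.44 over the members and −0.04 over all genes tested. Both aged libraries lay above both young libraries in 6 members, Lipm, Ivl, Krt6a, Krt71, Krt1 and Calml3 (23.3% of all genes tested), and below them in 4, Krt15, Tgm3, Tgm1 and Krt79 (22.8% of all genes tested), and the ages overlapped in the remaining 12.

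**Figure D2:**
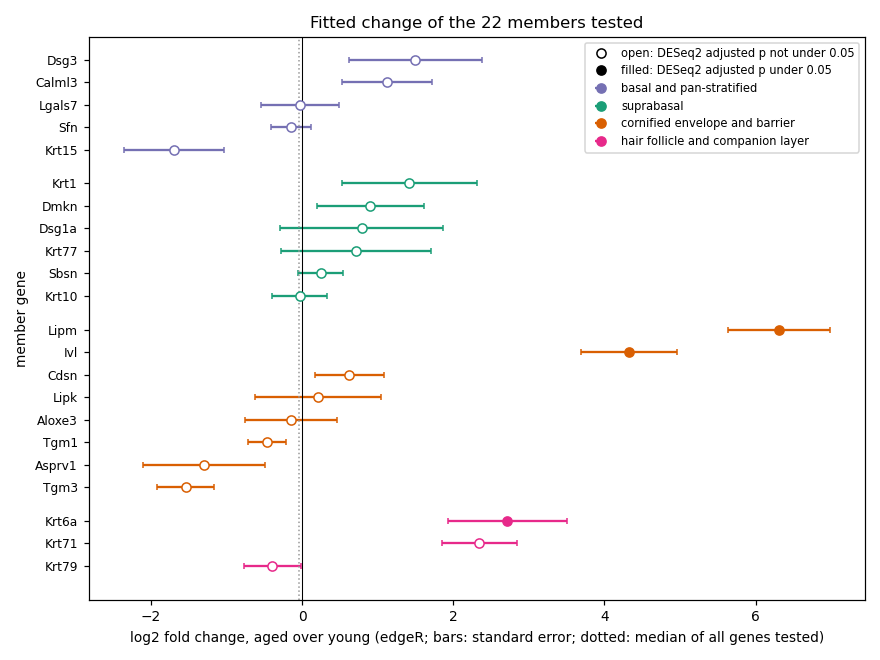
Log2 fold change of aged over young MFP with its standard error for the 22 members tested by edgeR, coloured by group, with filled points where DESeq2's adjusted p was under 0.05 and a dotted line at the median of all genes tested (−0.04). Lipm (6.31), Ivl (4.33) and Krt6a (2.72) are the filled points, and the other members lie between −1.70 and 2.35.

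Among basal and pan-stratified members, the 5 genes all passed the filter, 2 with a log2 fold change above 0 and 3 below it, and their median was −0.03. Sfn (14-3-3 sigma, a regulator of the cell cycle in stratified epithelia) had 1895 and 1432 counts in aged MFP against 1601 and 1764 in young MFP. These values overlapped, and the log2 fold change was −0.15. Lgals7 (galectin-7, a lectin of stratified epithelia) had 491 and 406 counts in aged and 254 and 567 in young MFP, so the young libraries enclosed the aged ones. Of the 1564 stretches of 50 bases in the transcripts of Sfn, 235 also occur in another gene, most often the pseudogene Gm7850, so its count depends on how shared reads were assigned.

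Krt15, a keratin of basal cells that is enriched in the hair follicle bulge and also made in mammary epithelium, had 402 and 258 counts in aged MFP against 509 and 1415 in young MFP. Both aged values were lower than both young values, but the 2 young libraries differed from each other by more than the lower young one differed from the aged. The level was 3.90 ± 1.43 CPM in aged and 12.7 ± 9.16 CPM in young MFP (SD, n = 2), with a log2 fold change of −1.70 ± 0.66 (SE) and an adjusted p of 0.488 in edgeR's quasi-likelihood test. Without young replicate 2 the log2 fold change was −0.66. Krt14, another type I keratin of basal cells, had the opposite order of the ages, with 3975 and 4509 counts in aged and 694 and 2519 in young MFP, and the ratio of Krt14 to Krt15 on the length-corrected RPKM scale was 9.94 and 17.6 in aged against 1.37 and 1.79 in young libraries. Krt5, the pairing partner of Krt14, had 6125 and 7675 counts in aged and 989 and 3753 in young libraries, and neither Krt5 nor Krt14 passed edgeR's quasi-likelihood test (adjusted p = 0.536 and 0.548).

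The remaining basal members were low. Calml3, a calmodulin-like protein of epithelia, had 64 and 63 counts in aged and 15 and 37 in young MFP, without overlap and with a log2 fold change of 1.12. Dsg3, the desmosomal cadherin of the basal layers, had 31 and 13 counts in aged and 3 and 11 in young MFP.

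Suprabasal members were low, and apart from Sbsn and Krt10 none had more than 43 counts in a library. Of the 10 genes, Krt2 was at 0 everywhere, 6 were tested, and of these 5 had a log2 fold change above 0 and 1 below it, with a median of 0.75. Their summed level was 11.6 and 8.69 CPM in aged and 8.23 and 8.75 CPM in young libraries, of which Sbsn gave the most. Sbsn (suprabasin, a secreted protein of the suprabasal layers) had 757 and 555 counts in aged and 493 and 520 in young MFP, higher in both aged libraries before scaling but overlapping on the CPM scale (7.74 ± 2.14 against 6.53 ± 0.73 CPM, SD, n = 2). Its log2 fold change was 0.25.

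The keratin pair that defines suprabasal epidermis was present at low and unequal levels. Krt1 had 24 and 15 counts in aged MFP against 2 and 11 in young MFP, which did not overlap. Its log2 fold change of 1.42 ± 0.89 (SE) had an adjusted p of 0.566 in edgeR's quasi-likelihood test. Krt10, which assembles with Krt1, had 80 and 125 counts in aged and 102 and 88 in young MFP, and these overlapped with a log2 fold change of −0.03. On the RPKM scale Krt10 was 6.96 and 17.4 times Krt1 in aged and 107 and 16.7 times Krt1 in young libraries, the value of 107 resting on the 2 Krt1 counts of young replicate 1. The Krt10 gene is overlapped on the other strand by Gm11940, which had 43 to 56 counts, and the strand setting of the counting is not given in the sources used here.

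Desmosomal cadherins of the upper layers were also low. Dsg1a had 43 and 24 counts in aged and 34 and 3 in young MFP, with a log2 fold change of 0.79 ± 1.08 (SE), and its near copy Dsg1b had 10 and 11 in aged and 22 and 1 in young MFP. Of the 50-base stretches, 35.0% of those of Dsg1a and 48.9% of those of Dsg1b also occur in another gene, most often the other of this pair, so the split of reads between them is uncertain. Dmkn (dermokine, another secreted suprabasal protein) had 28 and 11 counts in aged and 7 and 12 in young libraries, while Krt77 ranged from 4 to 29 and Krtdap from 1 to 4 over the 4 libraries.

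Compared per length, the keratins of the fat pad were those of simple and ductal epithelium. On the RPKM scale (CPM divided by the exon length in kilobases) the mean over the 4 libraries was 287 for Krt19, 252 for Krt18 and 170 for Krt8, keratins of simple and luminal epithelium, then 25.5 for Krt5, 20.2 for the luminal Krt7 and 20.2 for Krt14. Among 53 keratin genes the highest member was Krt15, ranked 8 at 4.69 RPKM, followed by Krt6a at rank 12 and Krt10 at rank 14 with 0.57 RPKM. Krt1 ranked 26 with 0.036 RPKM. The 14 keratin members together made 0.408 to 1.08% of the summed keratin RPKM of a library.

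**Figure D3:**
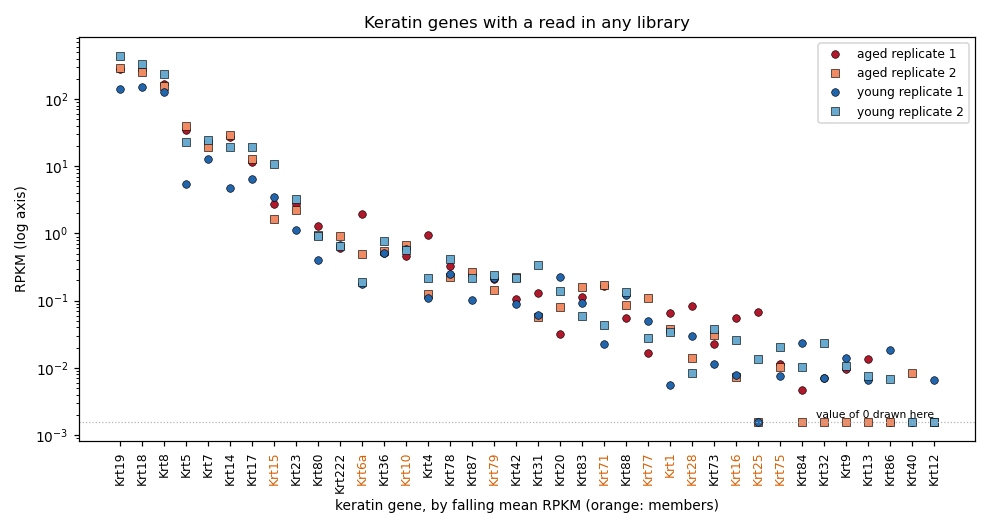
RPKM (log axis) of the keratin genes with a read in any library, ordered by mean, with member genes in orange and 1 point per library. The luminal keratins Krt19, Krt18 and Krt8 lie above 100 RPKM in every library, while Krt15, the highest member, has a mean of 4.69 RPKM and Krt1 one of 0.036 RPKM.

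The 15 cornified envelope and barrier members held both the most abundant member and the largest differences. Of these 15, 6 were at 0 in every library and 8 were tested, 4 with a log2 fold change above 0 and 4 below it, and their median was 0.03. The summed level was 95.5 and 53.1 CPM in aged and 62.6 and 48.4 CPM in young libraries, which overlapped. Most of this sum was Cdsn (corneodesmosin, an adhesive protein of the corneodesmosomes), with 6602 and 3443 counts in aged and 3906 and 2190 in young MFP. Its log2 fold change was 0.63 ± 0.45 (SE) with an adjusted p of 0.593 in edgeR's quasi-likelihood test, and −0.01 without aged replicate 1. In the mean over the 4 libraries Cdsn was the highest member per length at 18.4 RPKM, before Sfn at 12.8 RPKM and Lgals7 at 5.75 RPKM, although in young replicate 2 Sfn (14.8 RPKM) was above Cdsn (11.1 RPKM). None of the 50-base stretches of Cdsn occurs in another gene.

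Lipm, an acid lipase gene of differentiating keratinocytes, had 132 and 237 counts in aged MFP against 3 and 1 in young MFP. The lowest aged library was thus far above the highest young one, and the young values were at or under the floor of 3 counts. The level was 2.14 ± 0.74 CPM in aged and 0.025 ± 0.016 CPM in young MFP (SD, n = 2). Summed over the libraries of an age, the scaled ratio of aged to young was 84.1 (95% interval 32.6 to 310, counting error only). The log2 fold change was 6.31 ± 0.67 (SE) with an adjusted p of 0.36 in edgeR's quasi-likelihood test and 2.5e-09 in DESeq2, and over the 7 alternatives that kept all samples the adjusted p ran from 2.5e-09 to 0.573. DESeq2 also called it when any 1 of the 4 libraries was left out, but the spread then came largely from the age with 2 libraries, and Lipm passed the filter only through its aged counts. Lipm lies at chr19:34100933-34122687 on the plus strand of GRCm38 and is overlapped on the other strand by Ankrd22, which had 15 and 19 counts in aged and 4 and 20 in young libraries. Lipk, a related keratinocyte lipase, had 8 and 17 counts in aged and 4 and 15 in young MFP, which overlapped.

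Ivl had 53 and 61 counts in aged MFP against 4 and 1 in young MFP, and again the ages were far apart. Like Lipm, Ivl passed the filter only through its aged counts. Its level was 0.67 ± 0.026 CPM in aged and 0.031 ± 0.025 CPM in young MFP (SD, n = 2), a ratio of 20.8 over the summed libraries (95% interval 8.65 to 65.3). The log2 fold change was 4.33 ± 0.64 (SE), with an adjusted p of 0.36 in edgeR's quasi-likelihood test and 0.000763 in DESeq2 (0.000763 to 0.614 over 7 alternatives that kept all samples). DESeq2 called Ivl without young replicate 1 or young replicate 2 but not without aged replicate 2, and without aged replicate 1 it gave no adjusted p. Leaving out each sample, the DESeq2 log2 fold change was 3.80 to 5.62.

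Ivl sits in the epidermal differentiation complex, the gene cluster that holds most cornified envelope precursors. Between Sprr2d and Flg, at chr3:92339140-93293686 on GRCm38, the GENCODE M21 annotation has 45 protein-coding genes, and 35 of them had 0 counts in all 4 libraries. Only 5 exceeded 10 counts in any library, namely Sprr1a, Gm9774, Lce6a, Ivl and 2210017I01Rik. Sprr1a, a small proline-rich envelope precursor that is not a member, had 694 and 744 counts in aged MFP against 37 and 45 in young MFP. Its log2 fold change was 3.99 ± 0.31 (SE), with an adjusted p of 0.36 in edgeR's quasi-likelihood test and 9.9e-28 in DESeq2. Filaggrin (Flg) and Flg2, the precursors that bundle keratin in the outer layers, and the members Sprr1b and Sprr2d were at 0 throughout, and loricrin (Lor), the main envelope protein of mouse skin, had 4 and 0 counts in aged and 1 and 0 in young libraries.

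**Figure D4:**
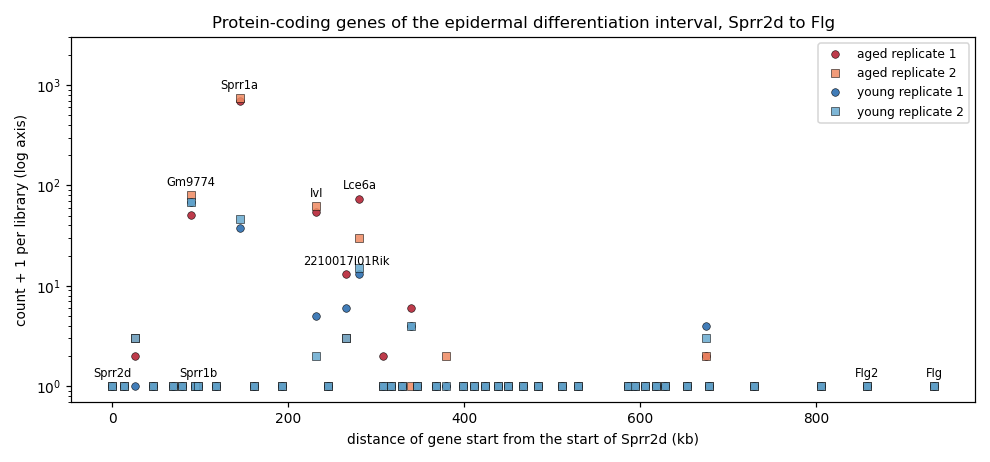
Read count plus 1 per library (log axis) of the 45 protein-coding genes between Sprr2d and Flg, against the distance of each gene start from that of Sprr2d in kilobases. Sprr1a and Ivl show aged points (694 and 744, and 53 and 61 counts) above the young ones, and 35 genes including Flg and Flg2 lie at 0.

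The member transglutaminases Tgm1 and Tgm3 had lower values in both aged libraries. Tgm1, the membrane-bound transglutaminase, had 809 and 812 counts in aged and 895 and 1130 in young MFP, with a log2 fold change of −0.46. Tgm3, the transglutaminase of upper epidermis and hair follicle, had 14 and 13 counts in aged and 35 and 37 in young libraries, with little spread within an age. Its log2 fold change of −1.54 ± 0.38 (SE) had an adjusted p of 0.408 in edgeR's quasi-likelihood test. Tgm5, an epidermal transglutaminase that is not a member, had the opposite order, with 15 and 30 counts in aged and 7 and 6 in young libraries (log2 fold change 1.63, adjusted p = 0.454 in edgeR's quasi-likelihood test). Among the lipoxygenases that make barrier lipids, Aloxe3 overlapped between the ages (86 to 131 counts in aged, 66 to 151 in young) and Alox12b had at most 6 counts. Asprv1, a protease that processes profilaggrin, had 59 and 57 counts in aged and 45 in young replicate 2, against 225 in young replicate 1.

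Of the 9 hair follicle and companion layer members, Krt6b and Krt27 were at 0 in every library and 3 were tested. Krt6a and Krt71 had a log2 fold change above 0 and Krt79 one below it, and the median of the 3 was 2.35, the value of Krt71. Since Krt71 passed the filter only through its aged counts, this median does not describe the group. It was 1.16 to 2.38 over 8 alternatives that kept all samples. The summed level was 6.42 and 2.30 CPM in aged and 1.61 and 1.86 CPM in young libraries. Krt6a gave 4.67 of the 6.42 CPM in aged replicate 1 and 1.18 of the 2.30 CPM in aged replicate 2. In young replicates 1 and 2 it gave 0.43 and 0.46 CPM.

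Krt6a, a keratin of the companion layer that is also induced in stressed epidermis, had 382 and 105 counts in aged MFP against 35 and 34 in young MFP. Both aged libraries were above both young ones, and the aged ones differed several-fold from each other. The level was 2.92 ± 2.47 CPM in aged and 0.44 ± 0.024 CPM in young MFP (SD, n = 2), with a ratio of 6.44 over the summed libraries (95% interval 4.99 to 8.41). The log2 fold change was 2.72 ± 0.78 (SE), with an adjusted p of 0.43 in edgeR's quasi-likelihood test and 0.019 in DESeq2 (0.019 to 0.833 over 8 alternatives that kept all samples). Without aged replicate 1 the edgeR log2 fold change was 1.39, and DESeq2 called Krt6a without aged replicate 2 or young replicate 2 but not without either replicate 1.

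Krt6a lies at chr15:101689910-101694307 on the minus strand, beside its near copy Krt6b at chr15:101676023-101680287. The coding sequences of the 2 genes are 97.6% identical with a longest shared run of 280 bases, and 45.7% of the 50-base stretches of Krt6a also occur in another gene, most often Krt6b. Bases 817 to 876 of both coding sequences are shown because they hold the densest differences, 10 in 60 bases, by which reads of the genes can be told apart. Capitals mark the differing bases.
Krt6a: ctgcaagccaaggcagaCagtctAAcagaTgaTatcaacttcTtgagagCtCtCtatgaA
Krt6b: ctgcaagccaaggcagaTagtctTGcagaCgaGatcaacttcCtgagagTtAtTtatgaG
All reads assigned to the pair were assigned to Krt6a, since Krt6b had 0 counts in each library. Krt16, the usual partner of Krt6a, had 7 and 1 counts in aged and 1 and 3 in young libraries, with 37.6% of its 50-base stretches shared with another gene, most often Gm11597.

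Member keratins of the inner root sheath were low, with at most 33 counts in a library. Krt71 had 30 and 33 counts in aged MFP against 4 and 7 in young MFP, a clear gap at low counts. Krt71 too passed the filter only through its aged counts. Its level was 0.37 ± 0.0026 CPM in aged and 0.072 ± 0.033 CPM in young MFP (SD, n = 2), and the log2 fold change of 2.35 ± 0.50 (SE) had an adjusted p of 0.385 in edgeR's quasi-likelihood test and 0.166 in DESeq2. Of the other inner root sheath members, Krt25 had 11 and 0 counts in aged and 0 and 2 in young MFP, Krt28 had 11 and 2 against 4 and 1, and Krt27 had none. The ratio of aged to young over the summed libraries was 5.22 (95% interval 2.73 to 11.0) for Krt71, 5.02 (1.09 to 46.6) for Krt25 and 2.37 (0.79 to 8.49) for Krt28, so at these counts no difference between the 3 genes could be shown. Krt75 of the companion layer had 3 and 3 counts in aged and 2 and 5 in young libraries. Krt79, a keratin of the upper follicle and sebaceous duct, had 81 and 61 counts in aged and 86 and 85 in young MFP, with a log2 fold change of −0.39.

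Further genes of the same tissues, from lists that are not members, were counted in the same fit. In the list of other epidermal differentiation genes 7 of 34 were at 0 and 21 were tested, with 16 log2 fold changes above 0 and 5 below it, and a median of 0.42. Its most abundant genes were the desmosomal Dsp (log2 fold change 0.52) and Pkp1 (0.43), and DESeq2 called only Sprr1a in this list. Among 28 other hair follicle and hair shaft genes 11 were at 0 and 9 were tested, with a median of 0.08. Gata3 (0.08) and Sox9 (0.58), transcription factors also made by mammary epithelium, were the most abundant, and the shaft keratin Krt31 had the largest fitted difference (17 and 8 counts in aged, 8 and 40 in young). All 12 other basal keratinocyte and myoepithelial genes were tested, 9 above and 3 below 0 with a median of 0.48, and the most abundant were Dst (0.74) and Itga6 (−0.16). The largest fitted difference in this list was that of Dsc3, −3.60 ± 1.97 (SE), with 138 and 105 counts in aged and 2824 and 29 in young libraries, and its adjusted p was 0.542 in edgeR's quasi-likelihood test.

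Markers of other cells that skin holds were mixed. Of 10 sebaceous gland genes 8 were tested, 6 above and 2 below 0, and the most abundant were Mgst1 (0.51) and Soat1 (−0.44). Both aged libraries lay above both young ones in 5 of the 8 and below them in 2 (23.3% and 22.8% of all genes tested). The 5 included Elovl3 (1.95), Scd3 (0.90), Mc5r (0.80) and Awat2 (0.60). DESeq2 called Far2, a fatty acyl reductase of the meibomian and sebaceous glands, lower in aged MFP, at 11 and 23 counts in aged and 164 and 140 in young libraries. Its log2 fold change was −3.30, with an adjusted p of 0.36 in edgeR's quasi-likelihood test and 8.3e-07 in DESeq2. Of 10 melanocyte genes 6 were tested, 4 above and 2 below 0. The most abundant, Kit (0.43) and Sox10 (0.46), are also made by mammary epithelium. The 2 below 0 were Dct (−0.26) and Pmel (−0.34), which overlapped between the ages. Tyr, not tested, had 0 counts in each aged library and 3 and 2 in young replicates 1 and 2. Mlana had 54 and 36 counts in aged and 1 and 6 in young MFP with a log2 fold change of 3.50. For this gene the adjusted p was 0.408 in edgeR's quasi-likelihood test and 0.0534 in DESeq2. Krt20 of Merkel cells had 5 and 14 counts in aged and 36 and 20 in young libraries.

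Among mammary luminal genes the most abundant were Prlr (log2 fold change 0.01) and Krt19 (−0.06), and Areg had the largest fitted difference, −2.30, with a DESeq2 adjusted p of 0.0564. Among adipocyte genes these were Cfd (0.50), Fabp4 (0.20) and, as the largest difference, Lep (1.20), and among muscle genes Ttn (2.09), Myh4 (2.06) and Myh2 (8.04). The value of Myh2 rested on aged replicate 1, with 47255 counts against 192 in aged replicate 2 and 94 and 78 in young libraries.

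Set beside the other cell types of the fat pad, the member groups were small. The highest summed level of any member group was 95.5 CPM, for the cornified members in aged replicate 1, whereas the mammary luminal list was at 1786 CPM or more and the adipocyte list at 9887 CPM or more in every library. In none of the 4 member groups did the summed CPM of the libraries separate the ages beyond a gap of the size seen within an age. Only the hair follicle group had both aged libraries above both young ones. Of that group Krt6a alone gave 4.67 and 1.18 CPM in aged against 0.43 and 0.46 CPM in young libraries. Without Krt6a the summed levels of the ages overlapped.

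**Figure D5:**
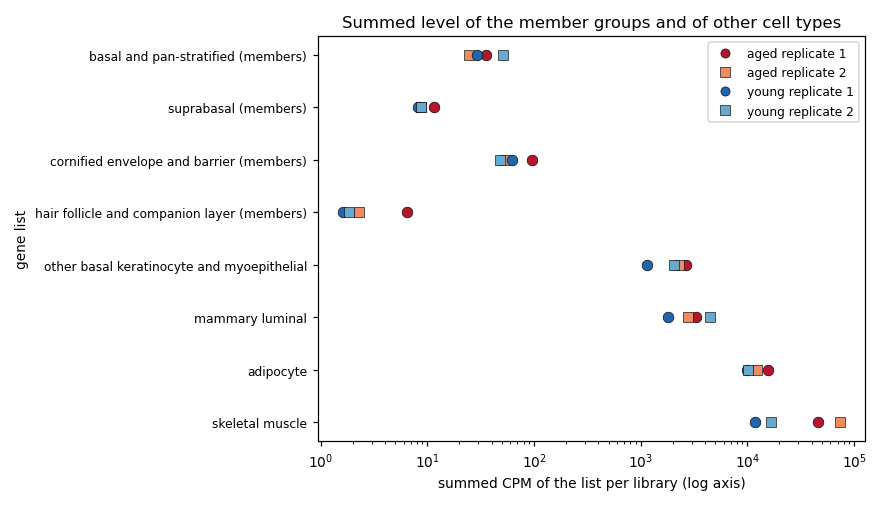
Summed CPM (log axis) of the 4 member groups and of 4 lists of other cell types, 1 point per library. The member groups lie between 1.61 and 95.5 CPM. The basal list, most of it Dst, and the luminal list lie between 1154 and 4424 CPM. Among these lists muscle has the widest gap between aged (46275 and 74250) and young (11891 and 16497) libraries.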

How the data were processed

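For whole MFP the authors deposited raw read counts, 1 column per sample, neither normalized nor filtered. The submitters' processing notes name R 3.6.1, featureCounts and GRCm38, and the aligner and strand setting are not given in the sources used here. The study's methods name DESeq2 for these data. Samples were grouped by age from their labels. Here the counts were filtered with filterByExpr, scaled by TMM and tested with the quasi-likelihood test of edgeR 4.0.16 (R 4.3.3, limma 3.58.1), with age as the only term, over 22485 genes at a Benjamini-Hochberg adjusted p of 0.05. DESeq2 1.42.0 was an alternative, as were RLE, upper quartile and total-count scaling, a minimum of 10 counts in every sample or no filter, a replicate block, and leaving out each sample. The crossed block and DESeq2 without each sample were chosen after seeing the data. The code was tested on simulated data.

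CPM used the TMM-scaled library sizes, and RPKM the exon length of GENCODE M21. Total counts were 68803304 to 98402403 per sample. Ratios of summed counts carry exact 95% binomial intervals, and since PCR reads without molecular identifiers are not independent molecules, intervals and floors cover counting error only. Stretches of 50 bases were compared between the transcripts of all genes.

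The members and lists were chosen with earlier results of these data known. Values per sample were set out for the 3 most abundant members and the largest fitted difference of each group, textbook layer markers and every member called. From other lists the 2 most abundant genes and the largest fitted difference were named. In the list of Langerhans and Merkel cell genes only Krt20 was tested. Further values were chosen after they were seen. Same-numbered samples did not deviate together (correlation −0.48), so the numbers were not taken as pairs. With 2 samples an age, differently numbered samples have the same correlation with a plus sign. The crossed block joined those samples. Promoter sequences were found for 27 members. Krt85 and the symbol Loricrin were not analysed here.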

Additional observations from a re-analysis of the deposited data

How the results depend on the processing

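No member passed edgeR's quasi-likelihood test under any of the scalings, filters, blocks or omitted samples tried, and neither did any other gene. DESeq2 called 869 genes and 3 members, and after leaving out aged replicate 1, aged replicate 2, young replicate 1 or young replicate 2 it called 303, 138, 762 and 3428 genes and 1, 2, 3 and 4 members. In these fits the DESeq2 log2 fold change was −2.29 for Krt15 without young replicate 1 and −1.99 for Asprv1 without young replicate 2. With at least 10 counts in every sample, 6 members did not overlap between the ages in place of 10, since fewer were tested. With 1 sample left at an age these were 13 to 18, but 1 value overlaps with 2 less readily. These counts are thus not comparable with the 10. The shares of all genes without overlap were not counted in these settings, so the counts say nothing particular about the members.

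The median log2 fold change of the suprabasal members was 0.11 with at least 10 counts in every sample, 0.19 to 0.56 leaving out each sample in edgeR, and 0.21 in DESeq2 without aged replicate 1. For the basal members it was −0.29 to 0.78 leaving out each sample, and 0.79 in DESeq2 without young replicate 2. For the cornified members it was −0.46 with at least 10 counts, −0.27 to 0.51 leaving out each sample, and 0.70 in DESeq2 without young replicate 2. For the hair follicle members it was 1.25 with no filter, 1.16 with at least 10 counts, 1.32 in DESeq2 and 1.39 to 2.19 leaving out each sample. DESeq2 without aged replicate 1, young replicate 1 or young replicate 2 gave −0.47, 1.31 and 2.01. DESeq2 and the unfiltered fit take in more members, and the filter of at least 10 counts fewer. That filter left only Krt10 and Sbsn of the suprabasal members, and only Krt6a and Krt79 of the hair follicle members. The edgeR fits without a sample also tested more genes than the main fit. These medians are thus not all over the same members. The part of the changed membership in the shifts without a sample was not tested.

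Over all settings the direction turned in 11 of the 22 members tested. Leaving out each sample gave a log2 fold change of −0.67 to 0.68 for Aloxe3, −2.00 to 0.16 for Asprv1, −0.012 to 1.06 for Cdsn, −0.013 to 1.46 for Dmkn, −0.053 to 3.24 for Dsg1a, −0.32 to 0.19 for Krt10, −1.20 to 1.49 for Krt77, −0.54 to 0.78 for Lgals7, −0.48 to 1.55 for Lipk, −0.079 to 0.50 for Sbsn and −0.45 to 0.094 for Sfn. In DESeq2 the turned values were 0.19 and 0.70 for Aloxe3, 0.16 for Asprv1, −0.038 for Dsg1a, 0.21 for Krt10, −1.20 for Krt77, 0.17 and 0.79 for Lgals7, −0.35 and −0.49 for Lipk, −0.061 for Sbsn, and 0.11 and 0.031 for Sfn. The replicate block gave 0 calls and turned only Lgals7, to 0.10. The crossed block also gave 0 calls, with Lgals7 at 0.10. Lipm, Ivl, Krt6a, Krt71, Krt1, Calml3, Dsg3, Krt15, Krt79, Tgm1 and Tgm3 kept their direction in every setting in which they had a value. Most members had under 100 counts a library, where a few reads set the fold, and with 2 samples an age a difference in 1 sample cannot be told from a difference in age.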

Other observations

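A few values were picked out after they were seen. Young replicate 1 held 2824 counts of Dsc3, a desmosomal cadherin of basal epithelium, against 138 and 105 in aged and 29 in the other young library. The same library had 70 counts of Cd207 (langerin, of Langerhans cells), where the others had 0 or 1, and 225 counts of the member Asprv1, where the others had 45 to 59. In the same library Krt5, Krt14 and Krt1 were at their lowest, with 989, 694 and 2 counts. Aged replicate 1 held the highest counts of Krt6a (382), Cdsn (6602) and Sbsn (757), and 47255 counts of the muscle gene Myh2, where the other libraries had 78 to 192.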
